A study of Homo sapiens with 20 samples.

Results

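Immortalized human pericytes given extracellular NAMPT (eNAMPT) were compared directly with the same cells given platelet-derived growth factor BB (PDGF-BB). The comparison used 10 of the 20 RNA sequencing libraries in the series: the 5 that the labels title NAMPT and the 5 that they title PDGF-BB. The libraries were taken by label alone. Pericytes are the contractile cells that wrap small vessels, and these came from a wild-type immortalized line supplied by Celther, grown in DMEM with 10% serum. The eNAMPT cells received recombinant human protein at 500 ng/mL and the PDGF-BB cells recombinant human protein at 20 ng/mL, each for 4 hours. A further 5 control libraries and 5 that received both agents at those doses entered the fit to estimate the spread, and their levels are given for reference. All groups share 1 immortalized line, so the values describe that line. Replicates carry the numbers 1 to 5 in each group. The labels call them biological replicates and say no more on how they were grown, so p-values measure only the spread between these libraries.

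NAMPT is the rate-limiting enzyme of NAD salvage inside cells, and its secreted form has been described as a ligand of the innate receptor TLR4, which signals through MYD88 to the transcription factor NF-kB. NF-kB is held inactive by IkB proteins and, once released, transcribes chemokines, leukocyte adhesion molecules and its own inhibitors. PDGF-BB binds PDGFRB, the receptor tyrosine kinase through which endothelial cells recruit pericytes, and signals through RAS to ERK and through PI3K to AKT. ERK drives immediate early genes, which need no new protein for their transcription, and the phosphatases and adaptors that later switch ERK off. AKT keeps FOXO transcription factors out of the nucleus. The question was which genes separate the 2 stimuli.

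The 10 libraries held between 3102071 and 3759592 gene counts. Levels are given as CPM after TMM scaling of the library sizes, except that summed markers and their members use unscaled library totals. Mitochondrial genes took 8.38% to 9.39% of counts with eNAMPT and 8.27% to 8.99% with PDGF-BB, with the higher share on the eNAMPT side in 5 of 5 replicate numbers. The part of this share in the results was not tested. Transcripts of both receptor systems were present, with PDGFRB at 117 CPM ± 14.9 (SD, n = 5) with eNAMPT and 134 CPM ± 14.4 with PDGF-BB, and TLR4 at 28.1 CPM ± 3.77 and 31.6 CPM ± 4.23. Of the 16 pericyte and mural markers, 12 had enough counts to be tested and 0 separated the stimuli (edgeR quasi-likelihood). Over all genes tested 2.99% did, so 0 of 12 says little about the markers. The markers summed to 1189 to 1581 CPM with eNAMPT and 1179 to 1699 CPM with PDGF-BB. Most of each sum was 1 gene, CALD1, with a mean of 910 CPM with eNAMPT and 940 CPM with PDGF-BB. The contractile myosin MYH11 had 0 counts with eNAMPT and 1 with PDGF-BB, and VTN had 0 in all 10 libraries. PTPRC, the common leukocyte marker, had 1 count in all with eNAMPT and 2 with PDGF-BB. CDH5, which defines endothelium, had 5 and 0. Other members had more: CD4 257 and 262, CD68 71 and 73, ROBO4 235 and 301, and EGFL7 229 and 220. In each group, 6 of 14 leukocyte markers and 1 of 12 endothelial markers had 0 counts. Summed leukocyte markers lay between 19.6 and 28.5 CPM and summed endothelial markers between 30.3 and 50.1 CPM over the 10 libraries. In bulk RNA, fewer cells of a kind and less RNA per cell cannot be told apart.

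PDGF-BB and eNAMPT left these cells with different transcript levels for 362 of 12111 genes tested, 2.99% (edgeR quasi-likelihood, replicate number as a block, adjusted p under 0.05). Of these, 94 were higher with eNAMPT, 0.776% of all genes tested, and 268 were higher with PDGF-BB, 2.21%. Most differences were modest: the median log2 difference, eNAMPT minus PDGF-BB, was 0.51 among the 94 and -0.42 among the 268, beside 0.00 over all genes. A log2 difference of 1 or more was reached by 9 genes on the eNAMPT side and 28 on the PDGF-BB side. The 5 libraries of one stimulus lay wholly above those of the other for 44 of the 94 and 118 of the 268, beside 2.29% of all genes tested. Without the replicate block 24 and 103 genes passed, each of them among the 94 or the 268. Scaling by spike-in counts left 5 and 46, also drawn from them. Of 94 called genes chosen for naming, 53 passed without the block and 30 with spike-in scaling, and 0 changed sign. Those that passed without the block included CXCL1, JMY, NFKBIA, ID2, NFKBIZ, TXNIP, ZIC2 and LARGE2 on the eNAMPT side. With PDGF-BB they included TAGLN3, FOSB, ANGPTL4, DUSP6, IL11, RTP4, DUSP5, AL390719.1, STC1, TRAF1, LIF, HAS2, ICAM1, EGR1, MAFF, IER2, RHOB, RRAD, ERRFI1, PDGFA, HBEGF, KITLG, PLAUR, CDKN1A and TBX3. The call held with any 1 of the 10 libraries left out for 25 of the 94 and for 136 of the 268. The authors' deposited table of this contrast called 140 genes, 31 higher with eNAMPT and 109 with PDGF-BB, and each was called here in the same direction. They are 38.7% of the 362 genes called here. Among the genes described below, PTX3, CXCL8, PHLDA1, MX1 and IFI44L were not called in the authors' table.

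The genes on the 2 sides stood differently towards control cells. Those higher with PDGF-BB had a median log2 difference from control of -0.05 with eNAMPT and 0.40 with PDGF-BB. Those higher with eNAMPT had medians of 0.10 with eNAMPT and -0.35 with PDGF-BB. In 78 of the 94, and in 255 of the 268, PDGF-BB lay further from control than eNAMPT did. Against control alone, 21 genes passed with eNAMPT, 0.173% of those tested, and 377 with PDGF-BB, 3.11%. These were 18 above and 3 below control with eNAMPT, and 299 and 78 with PDGF-BB. Without the replicate block they were 9 and 0 with eNAMPT and 127 and 20 with PDGF-BB, and with spike-in scaling 9 and 0, and 65 and 6. Among the 94, eNAMPT stood past the threshold above control for 3 genes, NFKBIA, CXCL1 and IRF1 (not IRF1 without the replicate block, adjusted p 0.173, or with spike-in scaling, adjusted p 1.00), and PDGF-BB stood past it below control for 39. Among the 268, PDGF-BB was past it above control for 189. These comparisons share libraries with the direct one, so the counts only place the genes and add no independent evidence. In the cells given both agents, the mean level of the 268 lay above both single treatments for 147 genes and between them for 121. For the 94 it lay above both for 2, between them for 62 and below both for 30.

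**Figure D1:**
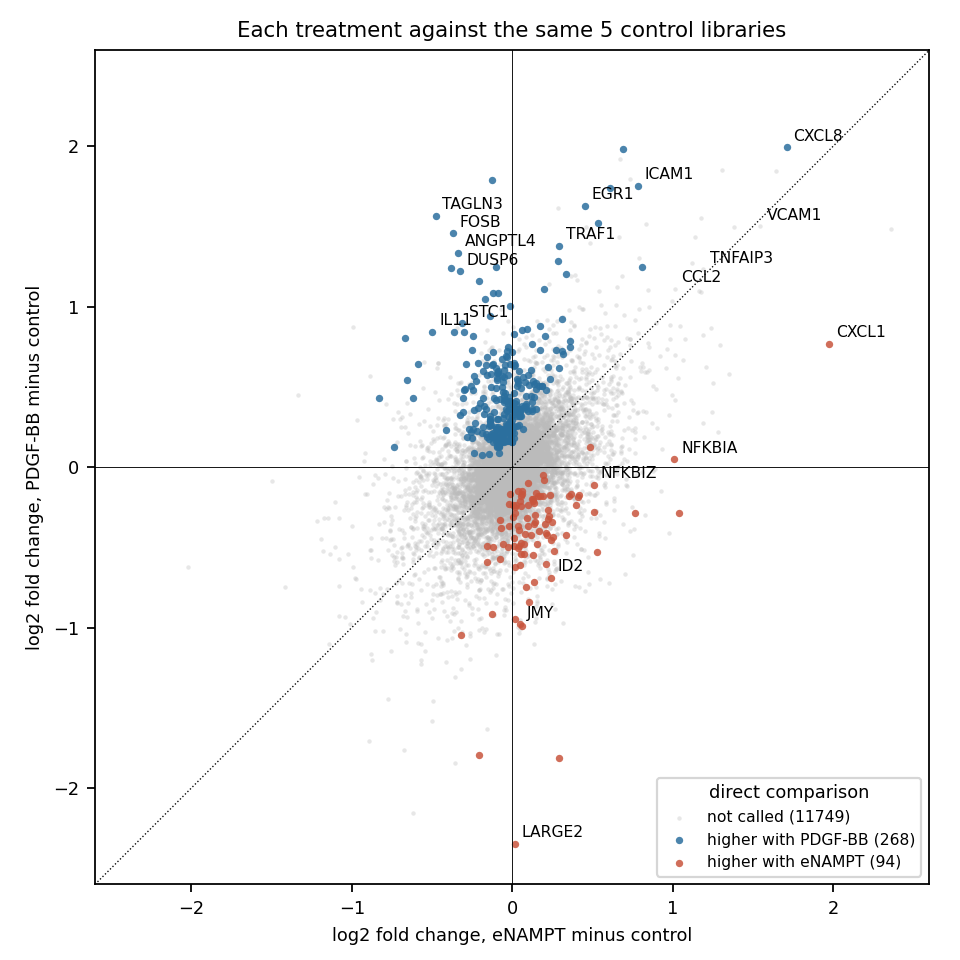
Log2 fold change against control with eNAMPT (horizontal axis) and with PDGF-BB (vertical axis) for the 12111 genes tested. Both axes use the same 5 control libraries. Each point is a gene, coloured by the direct comparison, and the dotted line marks equal values. The 268 genes higher with PDGF-BB (blue) spread upwards from the horizontal zero line, and most of the 94 higher with eNAMPT (red) lie below it, with CXCL1 and NFKBIA to the right.

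On the eNAMPT side the genes with the smallest p were NFKBIA and CXCL1, both targets of NF-kB. NFKBIA encodes IkB-alpha, the inhibitor that NF-kB itself induces (ENSG00000100906, chromosome 14, 35401511 to 35404749 on GRCh38). Its level in replicates 1 to 5 was 271, 260.3, 253, 269.7 and 279 CPM with eNAMPT and 153, 139, 125, 135 and 132 CPM with PDGF-BB. The groups were far apart, and the PDGF-BB libraries lay near the control mean of 132 CPM ± 10.6 (SD, n = 5). NFKBIA was 1.95-fold higher with eNAMPT (log2 difference 0.96, SE 0.06, adjusted p 7.54e-27). CXCL1, a neutrophil chemokine (ENSG00000163739, chromosome 4, 73869393 to 73871242), stood at 57.4, 55.8, 54, 41.4 and 55.5 CPM with eNAMPT and at 26.6, 30.7, 16.7, 21.1 and 19.2 CPM with PDGF-BB. Every eNAMPT library exceeded every PDGF-BB library, and the PDGF-BB mean of 22.9 CPM ± 5.69 was itself above the control mean of 13.5 CPM ± 2.53 (adjusted p 0.000432 against control). The direct difference was 1.21 (SE 0.14, adjusted p 1.82e-12), a 2.31-fold higher level with eNAMPT. NFKBIZ, a nuclear IkB protein, was at 39.7 CPM ± 1.62 with eNAMPT and 26.1 CPM ± 5.34 with PDGF-BB, a log2 difference of 0.62 (SE 0.14, adjusted p 0.00181). IRF1, a transcription factor shared by NF-kB and interferon signalling, was at 138 CPM ± 22.7 and 107 CPM ± 13.3 (log2 difference 0.36, SE 0.08, adjusted p 0.000998), and without the replicate block its adjusted p was 0.169.

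NF-kB sites near the start are textbook features of NFKBIA and CXCL1. Promoters are shown by smallest p, whatever their matches. Sequences are the 250 bases before the start from RefSeq on GRCh38.p14, 5′ to 3′ on the gene's own strand, for the genes with the smallest p on the eNAMPT side: NFKBIA (chr14:35404750-35404999, minus strand), CXCL1 (chr4:73869143-73869392, plus strand) and SLC38A2 (chr12:46372774-46373023, minus strand). Capitals mark matches to the NF-kB consensus on either strand.
NFKBIA: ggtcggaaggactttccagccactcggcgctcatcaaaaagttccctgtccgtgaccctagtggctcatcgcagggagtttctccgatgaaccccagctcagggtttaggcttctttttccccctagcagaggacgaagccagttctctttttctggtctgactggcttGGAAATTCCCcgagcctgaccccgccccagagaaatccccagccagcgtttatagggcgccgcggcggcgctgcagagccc
CXCL1: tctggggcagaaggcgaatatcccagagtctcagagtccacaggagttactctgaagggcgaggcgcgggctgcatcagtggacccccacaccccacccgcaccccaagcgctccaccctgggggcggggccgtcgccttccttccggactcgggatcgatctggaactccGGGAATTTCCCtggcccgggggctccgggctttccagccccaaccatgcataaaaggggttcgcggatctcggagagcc
SLC38A2: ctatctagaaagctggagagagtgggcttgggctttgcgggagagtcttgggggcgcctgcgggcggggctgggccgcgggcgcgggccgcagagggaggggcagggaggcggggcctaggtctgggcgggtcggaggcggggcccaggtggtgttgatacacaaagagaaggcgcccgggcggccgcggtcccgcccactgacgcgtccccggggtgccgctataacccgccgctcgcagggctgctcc
The match began 81 bases before the start of NFKBIA. In CXCL1 a pair of overlapping matches began 79 and 78 bases before it. SLC38A2, a sodium-coupled transporter of neutral amino acids (288 CPM ± 20.4 with eNAMPT, 199 CPM ± 19.3 with PDGF-BB, log2 difference 0.53, SE 0.06, adjusted p 6.65e-12), held no match to this or the other motifs searched. Of 27305 RefSeq promoters of 300 bases, from 250 before to 50 after the start, 10.8% held an NF-kB match, so a match is a description of the letters only. Promoters were matched by symbol for 72 of the 94 genes (76.6%) and 208 of the 268 (77.6%), too few for a comparison of motif shares between the groups.

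NF-kB feedback genes as a group did not line up on one side. Of 17 tested inhibitors and feedback genes, 2 were higher with eNAMPT (NFKBIA and NFKBIZ) and 2 with PDGF-BB (TRAF1 and TNFAIP2). The median log2 difference was -0.05, beside 0.00 over all genes. Called shares were 23.5% here and 20% among the NF-kB subunits, beside 2.99% of all genes tested. TRAF1, a signalling adaptor that NF-kB induces, was on the PDGF-BB side. It stood at 15.1, 10.8, 8.99, 9.56 and 9.47 CPM with eNAMPT and 24.2, 26.7, 20.2, 22.7 and 20.5 CPM with PDGF-BB, without overlap (log2 difference -1.09, SE 0.19, adjusted p 1.51e-05). TNFAIP2, another gene known to respond to TNF, went the same way, at 58.8 CPM ± 7.55 and 89.9 CPM ± 12.3 (log2 difference -0.61, SE 0.10, adjusted p 1.01e-06). Of the 5 NF-kB subunits 1 passed: NFKB1, which encodes p105 and p50, was at 68.7 CPM ± 5.34 with eNAMPT and 90.3 CPM ± 8.19 with PDGF-BB (log2 difference -0.39, SE 0.09, adjusted p 0.00169), with a control mean of 55.4 CPM ± 7.7.

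Several inflammatory genes were past the threshold above control with each stimulus and were not called in the direct test. VCAM1, which holds leukocytes to the vessel wall, stood at 41.7, 40.9, 41.4, 50.4 and 37.5 CPM with eNAMPT and 47.5, 31.3, 44, 42.2 and 40.9 CPM with PDGF-BB, and at 14.6 CPM ± 5.33 in control. The groups overlapped, and the log2 difference was 0.04 with a 95% interval of -0.22 to 0.30 (adjusted p 0.943). CCL2, the monocyte chemokine, was at 334 CPM ± 62 and 357 CPM ± 61.3, with an interval of -0.21 to 0.01 (adjusted p 0.476). TNFAIP3, which encodes the NF-kB inhibitor A20, was at 24.3 CPM ± 4.63 and 25.1 CPM ± 6.06, with an interval of -0.36 to 0.28 (adjusted p 0.957). The interval was -0.19 to 0.19 for JUNB, an AP-1 subunit, -0.22 to -0.05 for the survival gene IER3, -0.01 to 0.64 for the apoptosis inhibitor BIRC3, -0.59 to 0.37 for the chemokine CXCL3 and -0.51 to 0.03 for the junction protein CLDN1. The smallest adjusted p among these 5 was 0.0805, for IER3, which was called higher with PDGF-BB with no filter on low counts (adjusted p 0.0315), without eNAMPT replicate 5 (0.0297) and without PDGF-BB replicate 5 (0.0249). Of the 16 genes past control in both treatments, 7 were so without the replicate block (CCL2, CXCL1, CXCL8, IER3, PTX3, TNFAIP3 and VCAM1) and 7 with spike-in scaling (the same set with CXCL3 in place of IER3). The remaining 8 (BIRC3, CLDN1, EGR1, IFI44L, IL11, JUNB, MX1 and STC1) passed against control with at most 1 of the treatments in either setting. The intervals above bound the differences, and values that miss the threshold do not show equal responses.

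**Figure D2:**
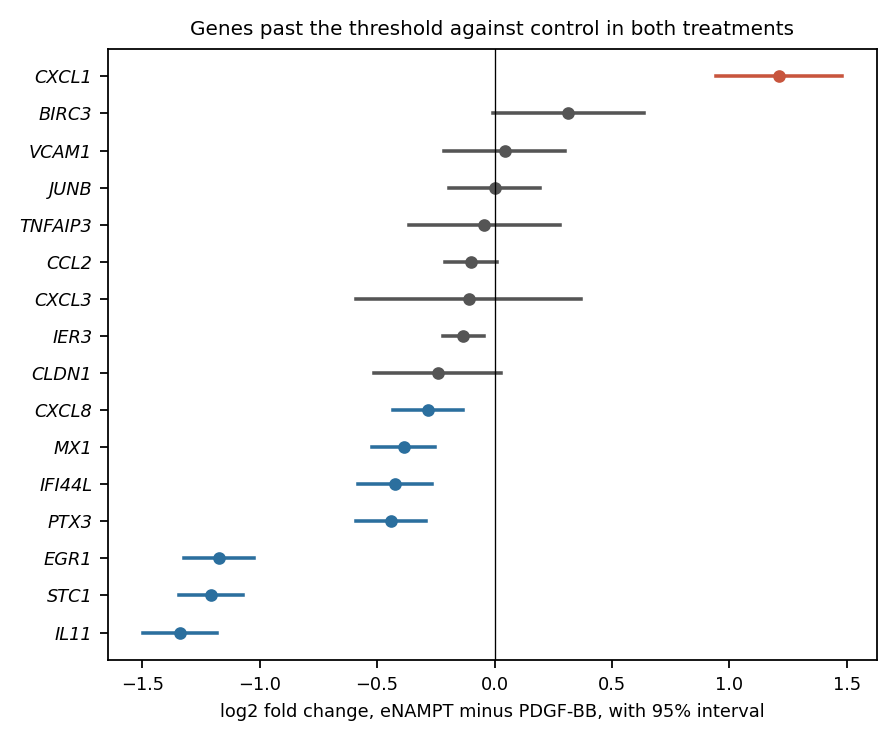
Log2 difference, eNAMPT minus PDGF-BB (horizontal axis), with its 95% interval (bars), for the genes past the threshold against control in both treatments. Red marks a gene higher with eNAMPT, blue higher with PDGF-BB and grey no call. CXCL1 stands alone on the right at 1.21. VCAM1, JUNB, TNFAIP3 and CXCL3 have intervals that span 0, and EGR1, STC1 and IL11 lie to the left at -1.17, -1.21 and -1.34.

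Chemokines and cytokines split by gene. Of 15 tested, 1 was higher with eNAMPT (CXCL1) and 3 with PDGF-BB (2 without the replicate block). The median was -0.14, and 26.7% were called, beside 2.99% of all genes tested. IL11, a cytokine of the IL-6 family that acts on stromal cells, stood at 88.2, 85, 96.7, 83.2 and 103 CPM with eNAMPT and 214, 198, 249, 286 and 211 CPM with PDGF-BB. The groups did not overlap, and the control mean was 131 CPM ± 42.3: against control, the log2 difference was -0.50 with eNAMPT (adjusted p 2.73e-05) and 0.84 with PDGF-BB (adjusted p 3.03e-17). Control and eNAMPT libraries of IL11 overlapped, and the eNAMPT value had an adjusted p of 0.427 without the replicate block and 1.00 with spike-in scaling, while PDGF-BB passed in both. Its direct difference was -1.34 (SE 0.08, adjusted p 8.81e-31), a level 2.53-fold higher with PDGF-BB. LIF, a related cytokine, was at 21.6, 15.9, 24.5, 21.4 and 25.5 CPM with eNAMPT and 42.8, 39.6, 44, 44.1 and 45.9 CPM with PDGF-BB, again without overlap (log2 difference -1.0, SE 0.14, adjusted p 1.83e-08). CXCL8, interleukin 8, rose with both: its control mean was 42.5 CPM ± 10.7, and the 5 libraries stood at 119.5, 152, 131, 104 and 188 CPM with eNAMPT and 142, 148, 169, 162 and 222 CPM with PDGF-BB. The groups overlapped, 4 of 5 replicate numbers were higher with PDGF-BB, and the difference was small (log2 difference -0.28, SE 0.08, adjusted p 0.0152). For CXCL8 the adjusted p was 0.494 without the replicate block and 0.0578 to 0.185 without eNAMPT replicate 1, 3 or 4 or PDGF-BB replicate 4 or 5.

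Leukocyte adhesion and innate effector genes had their calls on the PDGF-BB side. Of 11 tested, 5 were higher with PDGF-BB (3 without the replicate block) and 0 with eNAMPT. This was 45.5% called, beside 2.99% of all genes tested, with a median of -0.41. ICAM1, the adhesion molecule for leukocyte integrins, stood at 12.4, 9.51, 17.2, 6.38 and 13.4 CPM with eNAMPT and 19.2, 22.1, 18.1, 23.9 and 33.2 CPM with PDGF-BB. The lowest PDGF-BB library was just above the highest eNAMPT library (log2 difference -0.97, SE 0.20, adjusted p 0.000372). HAS2, which makes hyaluronan, was at 26.3, 23.1, 22.9, 25.2 and 35.9 CPM and 37.8, 52, 55.9, 50.6 and 67.6 CPM, without overlap (log2 difference -0.98, SE 0.12, adjusted p 4.57e-10). PTX3, a soluble pattern receptor, rose above its control mean of 65.3 CPM ± 16.2 with each stimulus, to 114 CPM ± 25.7 with eNAMPT and 155 CPM ± 32.7 with PDGF-BB. PTX3 libraries overlapped, the value was higher with PDGF-BB in 5 of 5 replicate numbers (log2 difference -0.44, SE 0.08, adjusted p 7.34e-06), and without the replicate block the adjusted p was 0.11. IFNGR2, a subunit of the interferon gamma receptor, and PTGS2, the inducible cyclooxygenase, were the other members that passed, at log2 differences of -0.41 and -0.99. The adjusted p of IFNGR2 was 0.056 without PDGF-BB replicate 4, and that of PTGS2 0.097 without PDGF-BB replicate 2.

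Immediate early transcription factors were called on the PDGF-BB side far more often than genes at large. Of 19 tested, 9 were higher with PDGF-BB (5 without the replicate block) and 1 with eNAMPT (IRF1, and 0 without the block). In all 52.6% were called, beside 2.99% of all genes tested, with a median of -0.32. EGR1, a zinc finger factor switched on by ERK (ENSG00000120738, chromosome 5, 138465490 to 138469315), stood at 73.7, 84.7, 95.1, 97.9 and 108 CPM with eNAMPT and 204, 189.5, 218, 252 and 172 CPM with PDGF-BB. Both group means lay above the control mean of 67 CPM ± 5.82 (eNAMPT adjusted p 0.000252, and 0.0981 without the replicate block), with a wide gap between the 2 stimuli (log2 difference -1.17, SE 0.08, adjusted p 2.64e-28), a level 2.26-fold higher with PDGF-BB. FOSB, an AP-1 subunit, was low throughout, at 0.887, 5.71, 2.73, 4.14 and 5.22 CPM with eNAMPT and 15.6, 13.8, 13, 11.5 and 11.2 CPM with PDGF-BB, and the groups did not overlap (log2 difference -1.83, SE 0.31, adjusted p 4e-06). MAFF, a small MAF protein, was at 51.7 CPM ± 6.95 and 88.6 CPM ± 9.64 (log2 difference -0.77, SE 0.10, adjusted p 1.45e-09), and JUN, the partner of FOS proteins, at 394 CPM ± 31.1 and 493 CPM ± 31.4 (log2 difference -0.32, SE 0.06, adjusted p 6.91e-06). MYC, which drives growth and ribosome production, was at 26 CPM ± 1.51 and 37.4 CPM ± 6.15 (log2 difference -0.52, SE 0.14, adjusted p 0.0136). Its adjusted p was 0.0602 to 0.221 without eNAMPT replicate 3 or PDGF-BB replicate 4. FOS itself had on average 5.6 counts per library with eNAMPT and 18.8 with PDGF-BB. It passed (log2 difference -1.63, SE 0.47, adjusted p 0.0311), with an adjusted p of 0.088 without the replicate block and 0.0545 to 0.226 without eNAMPT replicate 1, 3 or 5 or PDGF-BB replicate 1, 3, 4 or 5.

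Other immediate early genes went the same way: of 21 tested, 11 were higher with PDGF-BB (5 without the replicate block) and 0 with eNAMPT. Their median was -0.30, and 52.4% were called, beside 2.99% of all genes tested. IER2, a short-lived nuclear protein, stood at 160.0, 129, 151, 138 and 139 CPM with eNAMPT and 252, 224, 251, 259 and 195 CPM with PDGF-BB, clearly apart (log2 difference -0.72, SE 0.07, adjusted p 2.94e-17). RRAD, a small GTPase, was at 13.6 CPM ± 5.32 and 29.2 CPM ± 4.94 (log2 difference -1.13, SE 0.18, adjusted p 5.6e-07), and RHOB, a GTPase of endosomes and actin, at 39.6 CPM ± 6.2 and 66 CPM ± 12 (log2 difference -0.73, SE 0.11, adjusted p 3.02e-07). PHLDA1 was higher with PDGF-BB in every numbered pair, at 121 CPM ± 34.3 and 181 CPM ± 41.8 (log2 difference -0.59, SE 0.07, adjusted p 5.66e-11). Its libraries overlapped, and without the replicate block the adjusted p was 0.0525.

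ERK output and feedback genes were called only on the PDGF-BB side. Of 23 tested, 10 were higher with PDGF-BB (7 without the replicate block) and 0 with eNAMPT. This was 43.5% called, beside 2.99% of all genes tested, with a median of -0.34. DUSP6, the phosphatase that acts on ERK in the cytoplasm (ENSG00000139318, chromosome 12, 89347232 to 89353271), stood at 37.6, 44.1, 44.4, 21 and 40.2 CPM with eNAMPT and 107, 91.6, 116, 123 and 108 CPM with PDGF-BB. The groups lay far apart, and the eNAMPT mean of 37.5 CPM ± 9.61 did not pass against the control mean of 47.6 CPM ± 16.1 (adjusted p 0.692). The direct difference was -1.55 (SE 0.11, adjusted p 1.73e-24), or 2.93-fold. DUSP5, the nuclear ERK phosphatase, was at 29.3, 27, 21.5, 25.2 and 22.9 CPM and 40.4, 51.7, 55.9, 69.9 and 77.9 CPM, without overlap (log2 difference -1.22, SE 0.13, adjusted p 3.06e-13). DUSP1 was at 23.5 CPM ± 5.36 and 44.6 CPM ± 9.03 (log2 difference -0.93, SE 0.14, adjusted p 1.3e-07), SPRY4, a Sprouty inhibitor of receptor signalling, at 16.6 CPM ± 5.78 and 34.2 CPM ± 6.18 (log2 difference -1.06, SE 0.16, adjusted p 1.86e-07), and ERRFI1, which inhibits EGF receptors, at 42.9 CPM ± 7.26 and 75.4 CPM ± 6.86 (log2 difference -0.82, SE 0.11, adjusted p 1.59e-09).

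The other motifs searched included the CArG box bound by SRF and the AP-1 site TGANTCA. The promoters of 3 of the genes with the smallest p on the PDGF-BB side are shown, whatever their matches. They are those of AKAP12 (chr6:151239717-151239966, plus strand), IL11 (chr19:55370464-55370713, minus strand) and EGR1 (chr5:138465229-138465478, plus strand), written as above, with matches to the CArG box (AKAP12, EGR1) or the AP-1 site (IL11) in capitals.
AKAP12: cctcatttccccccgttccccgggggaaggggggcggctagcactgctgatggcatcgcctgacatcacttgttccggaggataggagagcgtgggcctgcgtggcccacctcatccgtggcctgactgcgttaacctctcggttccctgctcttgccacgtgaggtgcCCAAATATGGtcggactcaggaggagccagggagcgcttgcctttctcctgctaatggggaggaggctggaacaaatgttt
IL11: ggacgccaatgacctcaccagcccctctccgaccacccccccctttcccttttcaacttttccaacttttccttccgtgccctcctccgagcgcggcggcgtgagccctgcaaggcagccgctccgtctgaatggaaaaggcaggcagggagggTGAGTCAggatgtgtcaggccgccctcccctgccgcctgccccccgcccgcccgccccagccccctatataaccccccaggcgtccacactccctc
EGR1: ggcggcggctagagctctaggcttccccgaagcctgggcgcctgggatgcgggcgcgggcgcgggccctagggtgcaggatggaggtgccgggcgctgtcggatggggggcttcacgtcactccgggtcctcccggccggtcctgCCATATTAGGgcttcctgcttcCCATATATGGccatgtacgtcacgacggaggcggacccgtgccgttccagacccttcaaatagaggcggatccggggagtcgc
The CArG match of AKAP12, which anchors protein kinase A at the membrane, began 81 bases before the start. EGR1 held 2 CArG matches, from 105 and 83 bases before the start, and IL11 1 AP-1 match from 96. Over the 27305 RefSeq promoters, 1.29% held a CArG match, 7.76% an AP-1 match and 1.98% a match to the cAMP response element. None of the 6 promoters printed held the last of these. Among other named genes higher with PDGF-BB, PDGFA, ACTG1, FHL2 and GBP1 held a CArG match. LINC-PINT, GPR3, CXCL8 and PLAUR held an AP-1 match. FOSB, FOS, JUN, IER2, DUSP6 and HBEGF held neither, and PTX3, NFKB1 and IFNGR2 held NF-kB matches. The matches describe the letters only.

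**Figure D3:**
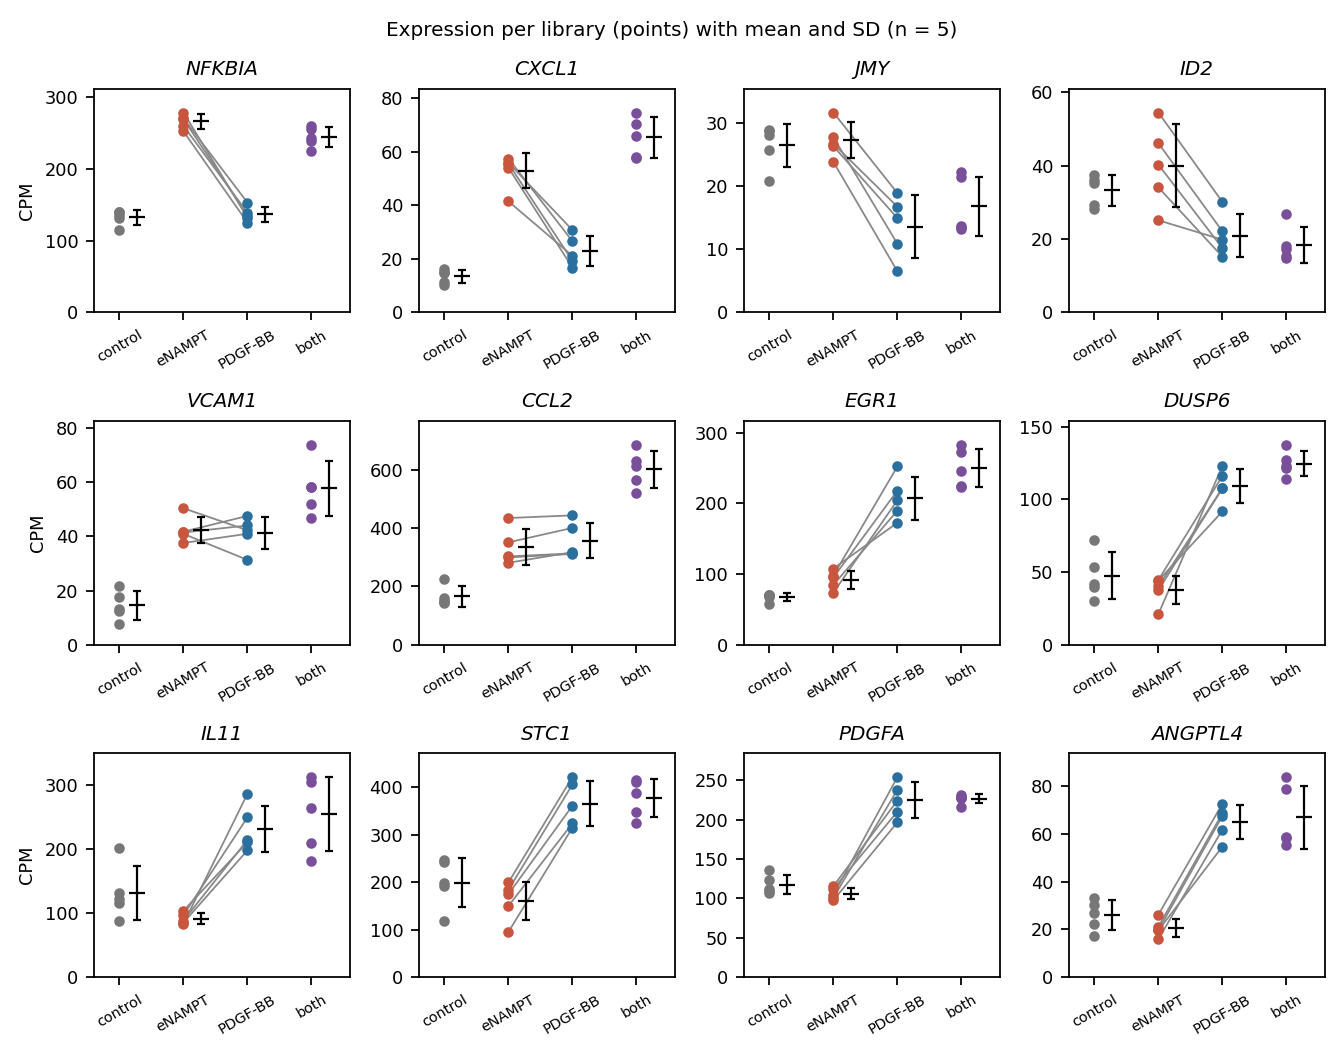
Expression in CPM (vertical axes from 0) per library for 12 genes in control, eNAMPT, PDGF-BB and combined cells. Points are libraries, grey lines join eNAMPT and PDGF-BB libraries of one replicate number, and the cross and bars give the mean and SD (n = 5). NFKBIA and CXCL1 are high with eNAMPT and in the combined cells, VCAM1 and CCL2 overlap between the single stimuli and have their highest means in the combined cells, and EGR1, DUSP6, IL11, STC1, PDGFA and ANGPTL4 are highest in the 2 groups given PDGF-BB.

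Among secreted growth and vessel factors, most calls were on the PDGF-BB side. Of 17 EGF, PDGF, VEGF and FGF family ligands and related factors tested, 7 were higher with PDGF-BB (5 without the replicate block). With eNAMPT 1 was higher, PGF (0 without the block). In all 47.1% were called, beside 2.99% of all genes tested, with a median of -0.31. For PGF, placental growth factor, the difference was 0.33, with an adjusted p of 0.0312 that was 0.0516 to 0.221 without eNAMPT replicate 1, 3, 4 or 5 or PDGF-BB replicate 2, 4 or 5. PDGFA, the partner chain of the PDGF family, stood at 104, 97.7, 112, 101 and 116 CPM with eNAMPT and 254, 197, 210.3, 238 and 224 CPM with PDGF-BB. No libraries overlapped, and the eNAMPT mean was close to the control mean of 117 CPM ± 12.2 (log2 difference -1.08, SE 0.07, adjusted p 4.93e-28). HBEGF, an EGF receptor ligand, was at 95, 81.8, 98.7, 96 and 153 CPM and 186, 187, 182, 245 and 254 CPM, also without overlap (log2 difference -1.02, SE 0.07, adjusted p 2.63e-24). ANGPTL4, a secreted inhibitor of lipoprotein lipase that also acts on vessels, was at 19.5, 15.9, 19.6, 21 and 26.1 CPM and 54.6, 61.7, 67.5, 68.6 and 72.6 CPM (log2 difference -1.67, SE 0.13, adjusted p 2.95e-22), 3.19-fold higher with PDGF-BB. VEGFA, the main endothelial growth factor, was at 18.3 CPM ± 3.72 and 31.8 CPM ± 6.09 (log2 difference -0.80, SE 0.16, adjusted p 0.000152), and KITLG, the ligand of KIT, at 35.8 CPM ± 8.06 and 60.6 CPM ± 12.1 (log2 difference -0.76, SE 0.12, adjusted p 3.99e-07). STC1, a secreted glycoprotein, belongs to none of the lists. It stood at 184, 199, 149.6, 95 and 175 CPM with eNAMPT and 406, 421, 324, 315 and 361 CPM with PDGF-BB, without overlap, and differed directly by -1.21 (SE 0.07, adjusted p 1.94e-32). Against control the log2 difference of STC1 was -0.31 with eNAMPT (adjusted p 0.0173) and 0.90 with PDGF-BB (adjusted p 7.45e-23). Control and eNAMPT libraries overlapped, and the eNAMPT value had an adjusted p of 1.00 without the replicate block and with spike-in scaling, while PDGF-BB passed in both.

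Called genes of matrix proteolysis lay on the PDGF-BB side. Of 15 tested, 8 were higher with PDGF-BB (3 without the replicate block) and 0 with eNAMPT. The median was -0.27, and 53.3% were called, beside 2.99% of all genes tested. PLAUR, the urokinase receptor, stood at 403, 367, 389, 301 and 431 CPM with eNAMPT and 664, 613, 628, 566 and 570.5 CPM with PDGF-BB, without overlap (log2 difference -0.69, SE 0.05, adjusted p 1.27e-23). TIMP3, an inhibitor of matrix proteases, was at 675 CPM ± 92.8 and 948 CPM ± 83.5 (log2 difference -0.49, SE 0.05, adjusted p 2.21e-17), and ADAMTS1, a matrix protease, at 172 CPM ± 34.5 and 251 CPM ± 24.9 (log2 difference -0.56, SE 0.07, adjusted p 3.97e-11). Of 24 extracellular matrix genes, 3 were higher with PDGF-BB and 1 with eNAMPT (0 without the replicate block). Their called share was 16.7%, beside the same 2.99%, with a median of -0.02. TNC, an injury-associated glycoprotein, was at 103 CPM ± 15.4 and 145 CPM ± 23.2 (log2 difference -0.49, SE 0.08, adjusted p 8.9e-07), THBS1 and COL6A3 differed by -0.42 and -0.34, and COL3A1, a fibrillar collagen, was on the eNAMPT side at 0.34 (adjusted p 0.000806, and 0.184 without the block).

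The separation of interferon-induced genes rested on the numbered pairs. Of 28 tested, 13 were higher with PDGF-BB and 0 with eNAMPT, or 46.4%, beside 2.99% called of all genes tested. The median was -0.31, and without the replicate block 1 of the 13, GBP1, passed. MX1, an antiviral GTPase, stood at 193, 230.2, 142, 219.6 and 171 CPM with eNAMPT and 274, 273, 209, 292 and 198 CPM with PDGF-BB. The 2 ranges overlapped, replicates 3 and 5 were low under both stimuli, and the PDGF-BB library was the higher in each pair (log2 difference -0.39, SE 0.07, adjusted p 8.54e-06, and 0.257 without the block). Against control MX1 differed by log2 0.36 with eNAMPT (adjusted p 0.000805, and 1.00 without the replicate block) and 0.75 with PDGF-BB (adjusted p 3.03e-17). IFI44L was at 119 CPM ± 19.3 and 161 CPM ± 39.1 (log2 difference -0.43, SE 0.08, adjusted p 5.82e-05, and 0.149 without the block). XAF1 was at 211 CPM ± 36.9 and 275 CPM ± 50 (log2 difference -0.39, SE 0.06, adjusted p 1.05e-06, and 0.104 without the block). Both had overlapping ranges and 5 of 5 pairs higher with PDGF-BB. GBP1, a guanylate-binding protein induced by interferon gamma, stood at 236, 250.5, 191, 269 and 281 CPM with eNAMPT and 337, 309.8, 303, 360.5 and 312 CPM with PDGF-BB, with no overlap (log2 difference -0.41, SE 0.06, adjusted p 4.44e-08).

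**Figure D4:**
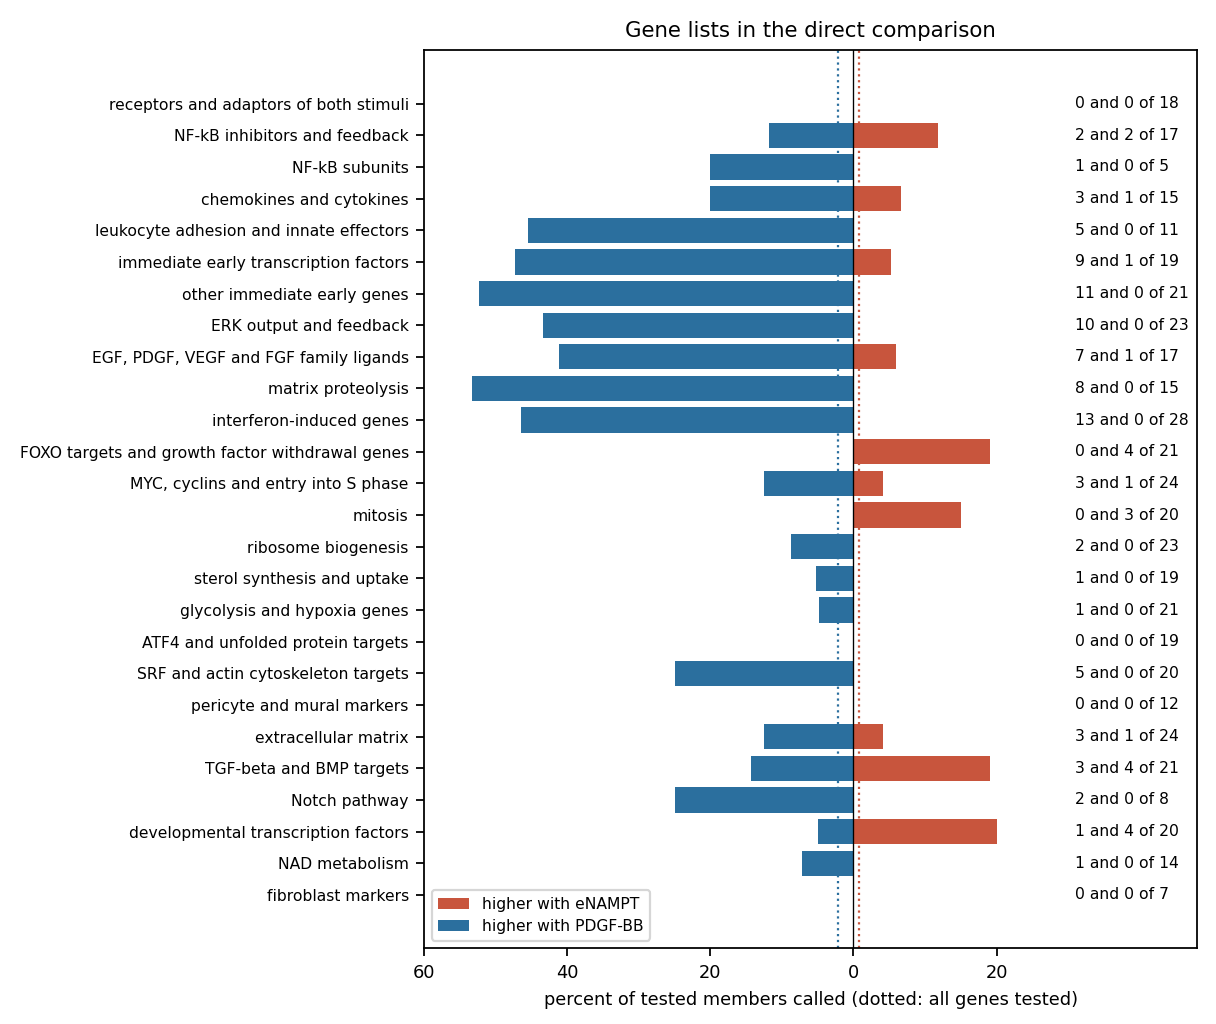
Share of tested members of each gene list called in the direct comparison, higher with PDGF-BB to the left (blue) and with eNAMPT to the right (red), in percent. Dotted lines give the share over all genes tested, 2.21% and 0.776%, and the figures on the right are the called members with PDGF-BB, then with eNAMPT, of those tested. Lists with fewer than 5 tested members are left out. Matrix proteolysis (8 of 15) and other immediate early genes (11 of 21) reach furthest to the left, and developmental factors (4 of 20), FOXO targets (4 of 21) and TGF-beta and BMP targets (4 of 21) furthest to the right.

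FOXO targets and genes of growth factor withdrawal had their calls on the eNAMPT side. Of 21 tested, 4 were higher with eNAMPT (2 without the replicate block) and 0 with PDGF-BB. This was 19% called, beside 2.99% of all genes tested, with a median of 0.26. TXNIP, which restrains glucose uptake and thioredoxin, stood at 75.1, 77, 87.2, 81.3 and 74.8 CPM with eNAMPT and 56.7, 54, 62.9, 56.5 and 54.9 CPM with PDGF-BB. These ranges did not overlap (log2 difference 0.47, SE 0.10, adjusted p 0.000419), and PDGF-BB lay below the control mean of 80.7 CPM ± 11.8 (adjusted p 0.000132, and 0.397 with spike-in scaling). HBP1, a cell cycle repressor, was at 25.4 CPM ± 2.28 and 15.6 CPM ± 2.67 (log2 difference 0.70, SE 0.18, adjusted p 0.00763), with an adjusted p of 0.101 without PDGF-BB replicate 1. CCNG2, an unconventional cyclin of resting cells, was at 13.2 CPM ± 3.92 and 6.64 CPM ± 2.75 (log2 difference 0.96, SE 0.27, adjusted p 0.0216), with an adjusted p of 0.0617 to 0.223 without eNAMPT replicate 3 or 4 or PDGF-BB replicate 2, 3 or 4. The arrestin-domain gene ARRDC3 was at 37 CPM ± 5.29 and 25.9 CPM ± 7.89 (log2 difference 0.54, SE 0.15, adjusted p 0.0181), with an adjusted p of 0.055 to 0.186 without eNAMPT replicate 1 or 5 or PDGF-BB replicate 1 or 4.

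Targets of TGF-beta and BMP signalling went both ways: of 21 tested, 4 were higher with eNAMPT (2 without the replicate block) and 3 with PDGF-BB (0 without it). Their median was 0.02, and 33.3% were called, beside 2.99% of all genes tested. ID2, an inhibitor of helix-loop-helix factors that BMPs induce, stood at 46.1, 54.5, 40.3, 34.1 and 25.1 CPM with eNAMPT and 22.1, 30.2, 17.5, 15.2 and 19.9 CPM with PDGF-BB. Replicate 5 with eNAMPT lay inside the PDGF-BB range, and each pair was higher with eNAMPT (log2 difference 0.93, SE 0.15, adjusted p 8.26e-07). ID3, its relative, was at 336 CPM ± 12.9 and 272 CPM ± 19.7 (log2 difference 0.31, SE 0.06, adjusted p 4.85e-05). SMAD6, an inhibitor of BMP signals, and the ligand BMP4 were the other 2 on that side, at 1.05 and 0.79, and neither passed without the replicate block. The adjusted p was 0.0583 to 0.0732 without eNAMPT replicate 2 or 5 or PDGF-BB replicate 2 or 3 for SMAD6, and 0.0501 to 0.0647 without eNAMPT replicate 1, 4 or 5 or PDGF-BB replicate 1 or 4 for BMP4. The BMP antagonist GREM1, the TGF-beta feedback gene PMEPA1 and LTBP2, named for the latent TGF-beta binding protein family, were higher with PDGF-BB, at -0.25, -0.32 and -0.27. For PMEPA1 the adjusted p was 0.0539 to 0.0561 without PDGF-BB replicate 1 or 4, and for LTBP2 0.0573 to 0.184 without eNAMPT replicate 1, 2, 3 or 4 or PDGF-BB replicate 1, 2, 3, 4 or 5.

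Developmental transcription factors also lay more often on the eNAMPT side, with 4 of 20 higher with eNAMPT (1 without the replicate block) and 1 with PDGF-BB. In all 25% were called, beside 2.99% of all genes tested, with a median of 0.17. ZIC2, a zinc finger factor, stood at 53.5, 55.2, 46.6, 45.3 and 57.8 CPM with eNAMPT and 28, 34.5, 37.5, 30.1 and 35.4 CPM with PDGF-BB, without overlap, and the eNAMPT level was near the control mean of 50.8 CPM ± 2.73 (log2 difference 0.64, SE 0.12, adjusted p 7.01e-05). TWIST1, a helix-loop-helix factor of mesenchymal cells, was at 57.8 CPM ± 6.19 and 40 CPM ± 12.1 (log2 difference 0.55, SE 0.12, adjusted p 0.000861), with 0.06 without the block. The homeobox gene SIX4 was at 0.73, with an adjusted p of 0.053 to 0.175 without eNAMPT replicate 3 or 5 or PDGF-BB replicate 1, 3 or 5. TBX3 went the other way, at 79.4 CPM ± 15.1 and 131 CPM ± 23 (log2 difference -0.72, SE 0.08, adjusted p 6.24e-13). JMY, a regulator of actin nucleation and p53 that is in no list, was among the genes with the largest differences on the eNAMPT side. It stood at 31.7, 26.3, 26.7, 27.7 and 23.8 CPM with eNAMPT and 18.9, 14.9, 16.7, 10.9 and 6.51 CPM with PDGF-BB, without overlap (log2 difference 1.03, SE 0.18, adjusted p 6.91e-06). The level with PDGF-BB was past the threshold below control (adjusted p 2.22e-05) and that with eNAMPT was not (adjusted p 0.993).

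Cell cycle genes held calls on both sides. Of 24 genes of MYC, cyclins and entry into S phase, 3 were higher with PDGF-BB (MYC, CCND1 and CDKN1A) and 1 with eNAMPT (SKP2), with a median of 0.00. Cyclin D1, CCND1, was at 402 CPM ± 68 with eNAMPT and 526 CPM ± 62 with PDGF-BB (log2 difference -0.39, SE 0.05, adjusted p 4.32e-09), and CDKN1A, which encodes the inhibitor p21, at 61.4 CPM ± 10 and 105 CPM ± 20.6 (log2 difference -0.76, SE 0.09, adjusted p 1.51e-10). Of 20 mitosis genes, 3 were higher with eNAMPT and 0 with PDGF-BB (0 and 0 without the replicate block), with a median of 0.07. The difference was positive for 16 of these 20. Called shares were 16.7% and 15% in these lists, beside 2.99% of all genes tested. CENPF, a kinetochore protein, was at 562 CPM ± 22.1 and 469.6 CPM ± 44.8 (log2 difference 0.26, SE 0.05, adjusted p 8.31e-05), 1.2-fold higher, and TOP2A and KIF20A differed by 0.15 and 0.26. The adjusted p was 0.0641 to 0.0702 without eNAMPT replicate 1 or PDGF-BB replicate 5 for TOP2A, 0.0537 to 0.246 without eNAMPT replicate 1, 3, 4 or 5 or PDGF-BB replicate 1, 2, 3, 4 or 5 for KIF20A and 0.0545 to 0.22 without eNAMPT replicate 2, 3, 4 or 5 or PDGF-BB replicate 1, 2, 3, 4 or 5 for SKP2.

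Of the actin genes driven by SRF, 5 of 20 were higher with PDGF-BB (2 without the replicate block) and 0 with eNAMPT, with a median of -0.09. ACTG1, cytoplasmic gamma actin, was at 4176 CPM ± 438 with eNAMPT and 5295 CPM ± 581 with PDGF-BB (log2 difference -0.34, SE 0.03, adjusted p 1.33e-15). FHL2 and ZYX, which bind actin structures, differed by -0.34 and -0.29. Notch genes had 2 of 8 higher with PDGF-BB, HES4 at -0.62 and HES1 at -0.31 (0 of 8 without the replicate block, median -0.23). In both lists the called share was 25%, beside 2.99% of all genes tested. The adjusted p was 0.0593 to 0.269 without eNAMPT replicate 1, 2 or 4 or PDGF-BB replicate 1, 2 or 3 for HES4 and 0.0579 to 0.221 without eNAMPT replicate 1, 2, 3 or 4 or PDGF-BB replicate 1, 2, 3 or 4 for HES1.

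Metabolic and stress lists held between 0 and 2 calls each. Higher with PDGF-BB were 2 of 23 ribosome biogenesis genes (DDX21 at -0.24, NOP56 at -0.21), 1 of 19 sterol genes (INSIG1 at -0.28), 1 of 21 glycolysis and hypoxia genes (SLC2A3 at -0.44) and 0 of 19 ATF4 and unfolded protein targets, with 0 higher with eNAMPT in each. These shares were 8.7%, 5.26%, 4.76% and 0%, beside 2.21% of all genes tested that were higher with PDGF-BB. Without the replicate block 0 of these passed. The adjusted p was 0.0507 to 0.102 without eNAMPT replicate 3 or PDGF-BB replicate 2 for NOP56, 0.0512 to 0.157 without eNAMPT replicate 1 or 3 or PDGF-BB replicate 3 or 5 for INSIG1 and 0.0602 to 0.429 without eNAMPT replicate 3 or 5 or PDGF-BB replicate 3 or 5 for SLC2A3.

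NAD metabolism had 1 of 14, the NAMPT gene itself, at 65.1, 71.7, 70.6, 60.2 and 65.6 CPM with eNAMPT and 72.6, 80.4, 93.9, 89.1 and 76.9 CPM with PDGF-BB (log2 difference -0.31, SE 0.09, adjusted p 0.0462). Its groups just failed to overlap, and the adjusted p was 0.149 without the replicate block and 0.0532 to 0.316 without eNAMPT replicate 1, 2, 3, 4 or 5 or PDGF-BB replicate 3, 4 or 5. The called share of NAD metabolism genes was 7.14%, beside 2.99% of all genes tested. Beside that same share, 0 of 18 receptors and adaptors of both stimuli passed, PDGFRB, PDGFRA, TLR4 and MYD88 among them. Their log2 differences were -0.20, -0.15, -0.17 and -0.18, and the smallest adjusted p of the 4 was 0.156, for PDGFRB, with an interval of -0.35 to -0.05.

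Markers of other cell types were tested where counts allowed. Of those with enough counts to test, 0 of 4 endothelial, 0 of 3 leukocyte, 0 of 7 fibroblast and 0 of 3 neural and glial markers passed. Beside 2.99% of all genes tested, lists this short can show little. Of 4 epithelial markers 1, the keratin KRT18, was higher with PDGF-BB (log2 difference -0.34, SE 0.07, adjusted p 0.000182, 0.0849 without the replicate block). The 12 epithelial markers summed to 144 to 197 CPM with eNAMPT and 179 to 244 CPM with PDGF-BB, nearly all of it KRT18. The defining genes EPCAM and CDH1 had 11 and 2 counts in the 5 eNAMPT libraries and 11 and 0 in the 5 PDGF-BB libraries. The 12 fibroblast markers summed to 391 to 447 CPM with eNAMPT and 383 to 468 CPM with PDGF-BB.

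Ranked by size, the ends of the comparison mixed abundant and scarce transcripts. The 15 genes with the largest difference in each direction, among those with 5 of 5 numbered differences of one sign, ran from 2.36 (LARGE2) to 0.81 (ZNF227) on the eNAMPT side and from -2.04 (TAGLN3) to -1.20 (WNT16) on the PDGF-BB side. With any 1 of the 10 libraries left out, 5 of the 15 eNAMPT genes and 9 of the 15 PDGF-BB genes always passed. LARGE2, a glycosyltransferase, had on average 10.2 counts per library with eNAMPT and 2 with PDGF-BB, and stood at 1.48, 2.22, 3, 4.46 and 4.57 CPM and 0, 0.861, 1.35, 0 and 0.62 CPM. Its adjusted p was 0.0115 in full and 0.059 to 0.103 without eNAMPT replicate 4 or PDGF-BB replicate 4. TAGLN3, a calponin family member, stood at 2.96, 2.22, 4.09, 3.51 and 3.26 CPM with eNAMPT and 15.9, 10.6, 12.4, 14 and 13.6 CPM with PDGF-BB, with a wide gap (log2 difference -2.04, SE 0.30, adjusted p 4.47e-08), a level 4.13-fold higher with PDGF-BB. Among the 15 eNAMPT genes, RPL11P3 is a processed pseudogene whose reads may come from its parent gene, and YPEL2, PPP1R3D, ID2 and ZNF227 share exon positions with a gene on the other strand. In all, 37 of the 106 genes chosen for naming do so, ANGPTL4, DUSP6, LIF, HAS2, ICAM1, PTX3, IER2, PHLDA1, ERRFI1, KITLG, CCND1, CDKN1A and NAMPT among them. Whether the counts are strand-specific is not stated in the sources used here, so reads of such pairs cannot be told apart.

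**Figure D5:**
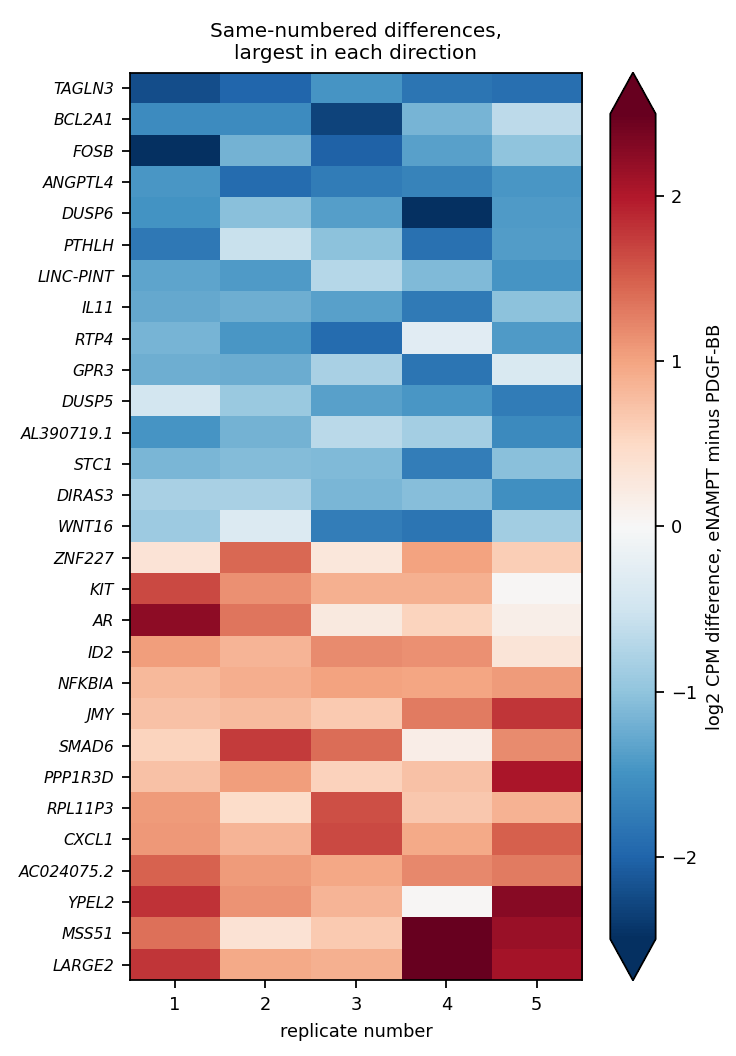
Log2 CPM difference, eNAMPT minus PDGF-BB, in each numbered pair of libraries (columns, replicates 1 to 5) for the genes with the largest difference in each direction (rows; 1 of the 30 is not shown). Blue is higher with PDGF-BB and red higher with eNAMPT, and colours saturate beyond the arrows of the scale. NFKBIA has nearly the same red in every replicate, whereas MSS51, YPEL2 and LARGE2 vary widely between pairs.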

How the data were processed

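RNA was sequenced from 20 pericyte libraries in 4 groups of 5. The values used are raw gene counts that the authors deposited. The submitters' processing notes list FastQC 0.11.7, STAR 2.6.1a, featureCounts 1.6.4, DESeq2 1.18.1 and the build GRCh38. The authors' deposited table of this contrast gives log2 fold changes and adjusted p-values. Whether the counting used strand is not given in the sources used here. All 58676 gene IDs matched GENCODE 29, and 92 ERCC and 7 SIRV spike-in rows were removed. A second deposited count table, higher in 152066 gene and library values and never lower, served as an alternative.

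The 12111 genes kept by edgeR's filter were fitted with edgeR 4.0.16 in R 4.3.3 (quasi-likelihood, TMM scaling, all 20 libraries, replicate number as a block), two-sided, with Benjamini-Hochberg adjustment over all genes and a threshold of 0.05. Fold changes and their 95% intervals come from this fit, and library differences in log2 CPM used a prior count of 2. The scripts were tested on simulated data. Alternatives were limma-voom (limma 3.58.1), DESeq2 1.42.0, other scalings, filters and libraries. Named genes were the 15 largest called differences in each direction (mean log2 CPM no lower than 1, 5 of 5 pairs of one sign), up to 4 called members with the smallest p from each list, genes past control in both treatments, and 16 fixed genes. IRF1, DUSP1, SPRY4, VEGFA, PTGS2, PGF, LTBP2, BMP4, SIX4, SLC38A2 and AKAP12, and those under other observations, were named after their values were seen. The comparison and gene lists were chosen with earlier results of these data known. Promoters came from RefSeq, and the motifs searched on both strands were the NF-kB consensus, the CArG box, the AP-1 site TGANTCA and the cAMP response element. No pair of libraries was identical. Some genes that met the rule are not reported here.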

Additional observations from a re-analysis of the deposited data

Results flagged for a closer look

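Among the named genes, 212 sets of 5 libraries (106 genes in each of the 2 treatments) were searched for a library far from the other 4, and 11 were found. Chance alone marks about 1 set in 20. Of the 11, 7 lay in eNAMPT replicate 5, which was high each time. It held HBEGF at 153 CPM (others 81.8 to 98.7), THBS1 at 516 CPM (351 to 389.5), ADAMTS1 at 232 CPM (146 to 169.8) and PTX3 at 159.0 CPM (98.0 to 113). It also held KITLG at 49.9 CPM (30.1 to 34.4), HAS2 at 35.9 CPM (22.9 to 26.3) and BCL2A1 at 1.96 CPM (0.638 to 0.951). For HBEGF, THBS1, ADAMTS1, PTX3 and HAS2, replicate 5 was also the highest library in control, PDGF-BB and combined cells. For KITLG and BCL2A1 it was not the highest in control or PDGF-BB cells. All 7 genes were higher with PDGF-BB than with eNAMPT, as were 268 of the 362 genes called. In eNAMPT replicate 4, CXCL1 was low at 41.4 CPM (54 to 57.4) and TNFAIP3 was low at 16.3 CPM (24.8 to 28.1). With PDGF-BB, KITLG was low in replicate 2 at 39.6 CPM (60.8 to 68.6), and MYC was high in replicate 4 at 48.1 CPM (33.4 to 36.8). For MYC the adjusted p was 0.0602 to 0.221 without eNAMPT replicate 3 or PDGF-BB replicate 4 (edgeR quasi-likelihood).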

How the results depend on the processing

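The numbers of genes higher with eNAMPT and higher with PDGF-BB, 94 and 268 in edgeR with the replicate block, stayed within 1.5 times under DESeq2 (90 and 251), limma-voom (91 and 261), other size factors (94 and 263), a filter of 10 CPM (105 and 253), a fit of the 10 libraries alone (108 and 268) and the other count table (90 and 248). They were 24 and 103 without the replicate block, 30 and 118 in the 10 libraries without the block, 5 and 46 with spike-in scaling and 30 and 169 at an adjusted p under 0.01. With no filter on low counts 57 and 230 passed. Leaving out 1 library gave 48 to 74 and 177 to 239, with both lowest values without PDGF-BB replicate 4. The eNAMPT count was 54, 52 and 56 without eNAMPT replicates 1, 3 and 4. Causes were not tested. Same-numbered eNAMPT and PDGF-BB libraries correlated at 0.0751 to 0.240 in their deviations from the group means, and differently numbered ones at -0.160 to 0.138. Each eNAMPT library correlated best with its own number, in 5 of 5, a hint from the data rather than the design. One pair lay under 0.1, so the numbers were not shown to pair the cultures, and the block was kept because the comparison was defined with it. No called named gene changed sign. IER3, not called in the reported fit, was called with no filter and without replicate 5 of either treatment. Among uncalled ones, leaving out 1 library turned the sign of CXCL3 (-0.33 to 0.092, positive without replicate 1 of either treatment), VCAM1 (-0.013 to 0.090, negative without replicate 2 of either), TNFAIP3 (-0.10 to 0.10, positive without eNAMPT replicate 4 or PDGF-BB replicate 5) and JUNB (-0.10 to 0.12, negative without eNAMPT replicate 3 or 5 or PDGF-BB replicate 5). JUNB, at 0.00 in the reported fit, was also negative without the replicate block (-0.0075), in the 10 libraries (-0.00075), in those without the block (-0.0046), with spike-in scaling (-0.012), with no filter (-0.0049) and in limma-voom (-0.018). At 3102071 to 3759592 counts a library, genes of a few counts, such as LARGE2 and FOS, gave wide intervals.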

Other observations

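Genes outside the lists also separated the stimuli, and the following were picked after their values were seen because each passed with any 1 of the 10 libraries left out (edgeR quasi-likelihood). Several higher with PDGF-BB encode signalling parts. AKAP12, a scaffold for protein kinase A, was at 815 CPM ± 122 (SD, n = 5) with eNAMPT and 1378 CPM ± 152 with PDGF-BB (log2 difference -0.76, SE 0.04, adjusted p 1.47e-32). MAP2K3, the kinase upstream of p38, was at 348 CPM ± 61.8 and 574 CPM ± 23.3 (log2 difference -0.73, SE 0.05, adjusted p 3.08e-23). RGS4, which turns off G protein signals, was at 163 CPM ± 26.7 and 268 CPM ± 33.2 (log2 difference -0.72, SE 0.07, adjusted p 2.94e-17). INHBA, the activin A subunit, was at 90.3 CPM ± 4.16 and 171 CPM ± 25.5 (log2 difference -0.91, SE 0.08, adjusted p 5.49e-19), and FST, the secreted antagonist of activin, was at 55.7 CPM ± 16.7 and 93.7 CPM ± 23.7 (log2 difference -0.75, SE 0.10, adjusted p 7.58e-10). F3, tissue factor and the trigger of coagulation, was at 199.7 CPM ± 34.5 and 323 CPM ± 53.7 (log2 difference -0.69, SE 0.06, adjusted p 1.98e-16). SOX9, a transcription factor of cartilage and scar-forming cells, was at 48.9 CPM ± 7.1 and 80.7 CPM ± 6.13 (log2 difference -0.73, SE 0.10, adjusted p 1.64e-08). SDC4, a heparan sulfate co-receptor, differed by -0.40, and the phosphate transporter SLC20A1 by -0.43. Of these 9, AKAP12, MAP2K3, RGS4, INHBA, SOX9, SDC4 and SLC20A1 had groups without overlap, while F3 and FST overlapped. Groups did not overlap for 2.29% of all genes tested and 44.0% of the 268 higher with PDGF-BB. As the 9 were picked after their values were seen, their separation adds no evidence.

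On the eNAMPT side, transcriptional regulators were among the genes outside the lists. TLE4, a corepressor of the Groucho family, was at 256 CPM ± 12.6 with eNAMPT and 183 CPM ± 15.6 with PDGF-BB (log2 difference 0.49, SE 0.06, adjusted p 3.49e-10). PNRC1, a nuclear receptor coregulator, was at 40.1 CPM ± 8.34 and 24.8 CPM ± 3.01 (log2 difference 0.68, SE 0.14, adjusted p 0.000386). ATF7IP, which supports histone methylation at silenced chromatin, was at 89.6 CPM ± 6.84 and 63.6 CPM ± 9.65 (log2 difference 0.50, SE 0.10, adjusted p 8.25e-05). HMGB2, a chromatin protein of dividing cells, was at 352 CPM ± 28.9 and 280.0 CPM ± 21.2 (log2 difference 0.33, SE 0.06, adjusted p 5.75e-06). MYBL1, a MYB family factor, was at 90 CPM ± 4.52 and 66.5 CPM ± 8.5 (log2 difference 0.44, SE 0.09, adjusted p 0.000429). The groups did not overlap for any of these 5. The same held for 2.29% of all genes tested and 46.8% of the 94 higher with eNAMPT. As the 5 were picked after their values were seen, their separation adds no evidence. Against control, their log2 differences with PDGF-BB were -0.35, -0.55, -0.42, -0.20 and -0.30, and with eNAMPT 0.13, 0.13, 0.08, 0.13 and 0.14. TCF4, a helix-loop-helix factor, differed directly by 0.31 and FZD2, a Wnt receptor, by 0.38. FZD2 overlapped between groups, and its adjusted p was 0.0849 without the replicate block.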
